A study of Arabidopsis thaliana with 12 samples.

Results

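Nuclear genes of Arabidopsis thaliana that carried CG methylation but almost no CHG methylation in wild-type shoot stem cells, and that had CHG methylation in stem cells of the ddm1 mutant without heat, are described here. They were chosen by their own levels: each had 100 or more calls in CG and in CHG in all 6 groups, wt levels of 20% or more in CG and below 5% in CHG with and without heat, and 5% or more CHG in ddm1 control. The rule found 419 genes of 5822 body-methylated genes (7.20%), which themselves came from 28139 covered genes among 38387 identifiers. The wt CG and CHG levels and the CHG level of ddm1 control are therefore part of the choice and are given as a description, without a test.

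Stem cell nuclei were sorted by the fluorescence of the reporter pCLV3::H2BmCherry, which all plants carried in the Col-0 background. The reporter line itself served as wt. In poliv it was combined with nrpda-3 (SALK_128428), an insertion in the gene for the largest subunit of RNA polymerase IV, and in ddm1 with ddm1-10 (SALK_093009), an insertion in the gene for the chromatin remodeller DDM1. Seedlings had 37 °C for 1 day, which ended at day 7, and then recovered for 21 days, while controls stayed at the regular temperature, and inflorescence apices were taken from all plants at day 28. Each of the 6 groups had 2 libraries, but the values are 1 pooled column per group, so no value has an error between plants. Each mutant is represented by 1 allele, and the sources used here do not say for how many generations the mutants had been kept. No marker of cell type was read from DNA methylation here, so the identity of the sorted nuclei rests on the reporter.

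Most transcribed genes with methylation in Arabidopsis have it in CG only, in the body of the gene, where MET1 copies it at replication. CHG methylation, with H for any base but G, is kept by CMT3 together with histone H3 lysine 9 methylation and is typical of transposons, and in genes the demethylase IBM1 removes that histone mark. DDM1 opens heterochromatin to the methyltransferases, and RNA polymerase IV starts the small RNA pathway of CHH methylation, called RdDM.

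Coding windows of 6 of the genes are shown, since these genes stand for the patterns described below: CML30 and TBL21 had high CHG in both ddm1 groups, AT1G30870, EMB1467 and RDR2 had more after heat, and KTF1 had less. For each gene the window of 120 bases within 1 coding exon that holds the most CHG trinucleotides was taken from the RefSeq annotation of TAIR10.1, on the coding strand. Capitals mark CAG, CTG and CCG, and CGG for CCG of the opposite strand. The windows were CML30 chr2:6831112-6831231 (plus strand), TBL21 chr5:5188196-5188315 (minus), AT1G30870 chr1:10992216-10992335 (plus), EMB1467 chr5:14897526-14897645 (plus), RDR2 chr4:6782329-6782448 (plus) and KTF1 chr5:1200323-1200442 (plus).
CML30: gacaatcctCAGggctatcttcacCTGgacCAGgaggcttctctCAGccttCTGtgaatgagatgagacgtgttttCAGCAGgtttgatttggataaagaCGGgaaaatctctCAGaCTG
TBL21: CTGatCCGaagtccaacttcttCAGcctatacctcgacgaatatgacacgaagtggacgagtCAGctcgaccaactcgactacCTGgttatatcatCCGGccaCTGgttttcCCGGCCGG
AT1G30870: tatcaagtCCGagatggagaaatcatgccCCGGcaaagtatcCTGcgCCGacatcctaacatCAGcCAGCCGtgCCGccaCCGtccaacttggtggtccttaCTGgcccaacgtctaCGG
EMB1467: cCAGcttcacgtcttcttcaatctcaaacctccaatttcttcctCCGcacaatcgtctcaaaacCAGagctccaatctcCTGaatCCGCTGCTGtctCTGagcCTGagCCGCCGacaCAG
RDR2: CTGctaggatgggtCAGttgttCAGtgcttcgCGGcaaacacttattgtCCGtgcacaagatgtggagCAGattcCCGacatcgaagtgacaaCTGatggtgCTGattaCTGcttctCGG
KTF1: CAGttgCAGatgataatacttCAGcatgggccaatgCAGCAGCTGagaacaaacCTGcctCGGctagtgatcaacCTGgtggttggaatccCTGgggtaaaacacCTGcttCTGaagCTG
The windows held between 10 and 13 CHG trinucleotides. They differed more in CG, with 1 CG dinucleotide in KTF1, 2 in CML30 and 10 in TBL21. The deposited values are sums over whole genes, so which of these sites were methylated was not analysed here.

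In wt and poliv the 419 genes had a CHG level near the level of unconverted cytosines. The medians were 0.58% (wt control), 0.93% (wt heat), 0.57% (poliv control) and 0.85% (poliv heat). In chloroplast genes, which carry no methylation and show how many cytosines escaped conversion, the CHG level was between 0.345% and 0.736%, and it was higher in all 3 heat groups than in their controls. In ddm1 the median was 8.86% without heat, with the middle 50% of the genes between 6.41% and 14.9%, and 12.4% after heat, with the middle 50% between 7.96% and 22.0%. The other 5403 body-methylated genes had medians of 0.91% and 1.24% in the ddm1 groups and between 0.43% and 0.79% in wt and poliv. A level is a mean over nuclei and sites, so more methylated nuclei and more methylated sites per nucleus cannot be told apart.

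**Figure D1:**
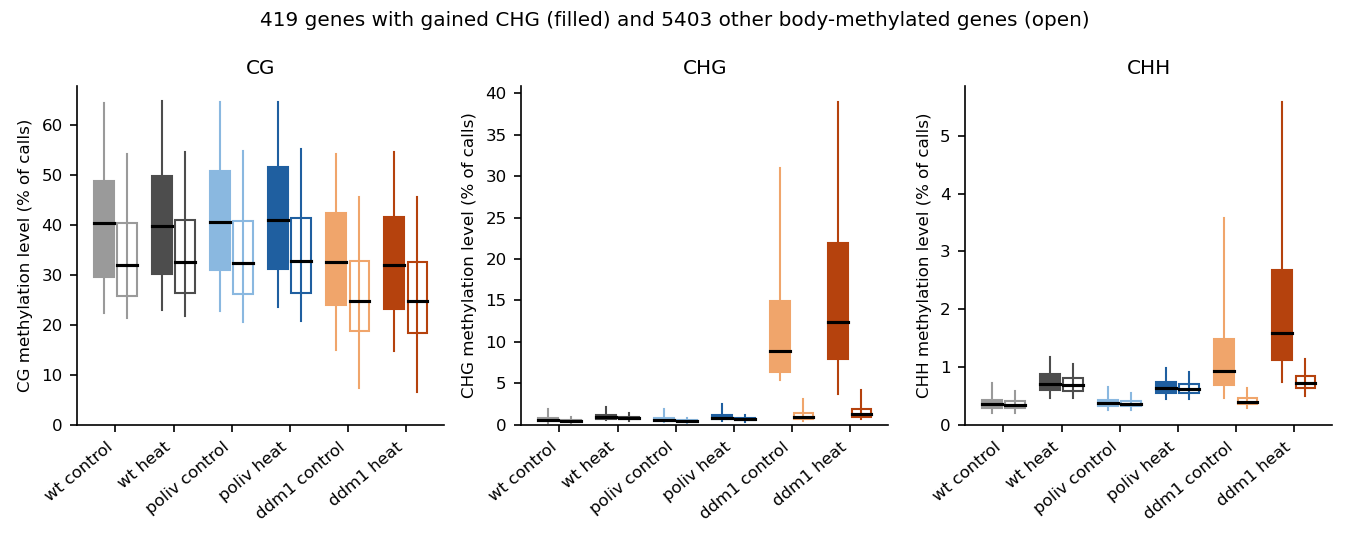
Methylation levels in percent of calls in CG, CHG and CHH for the 419 genes (filled boxes) and the 5403 other body-methylated genes (open boxes) in the 6 groups. Boxes span the quartiles, black lines are medians and thin lines reach from the 5th to the 95th percentile of genes. CHG and CHH of the 419 genes stand apart mainly in the ddm1 groups, with CHG medians of 8.86% and 12.4%. In wt control and poliv control their CHG medians are 0.58% and 0.57%, beside 0.43% and 0.44% in the other genes. CG is lower in ddm1 in both sets of genes.

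To ask for CHG in columns that the choice of genes had not used, ddm1 heat was compared with poliv heat. CHG was higher in ddm1 heat in 360 of the 419 genes (85.9%), where 2.71% of all 28139 genes tested and 2.18% of the other body-methylated genes were called. A call needed an adjusted p under 0.05 (Fisher's exact test on pooled calls, 2-sided, Benjamini-Hochberg over all genes tested) and a difference of at least 5 points. The test compares the pooled libraries and not plants, so it covers counting error only. The median difference was 11.2 points, against 0.57 in the other body-methylated genes. In 58 genes there was no call. Of these 39 had under 5% CHG in ddm1 heat, and in 56 the level was still the higher one in ddm1 heat.

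CHG was lower in ddm1 heat than in poliv heat in 1 of the 419 genes (0.239%). The shares were 3.83% of all genes tested and 0.074% of the other body-methylated genes. All genes tested include genes with CHG in wt, which the choice left out. The 1 gene was NRPD1 (NRPD1A in the annotation), the gene that carries the insertion of the poliv line. Its CHG level was 0.73% in wt control, 0.951% in wt heat, 14.9% in both poliv groups, 6.71% in ddm1 control and 6.93% in ddm1 heat. Thus both mutants had CHG there, and poliv had the most (adjusted p = 1.7e-40 for ddm1 heat against poliv heat, Fisher's exact test).

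The highest CHG level in ddm1 heat was that of CML30 (AT2G15680), a single-exon gene for a calmodulin-like calcium sensor. It was 0.98% in wt control, 0.829% in wt heat, 1.03% in poliv control, 0.865% in poliv heat, 58.7% in ddm1 control (95% Wilson interval 55.3 to 62.1) and 63.2% in ddm1 heat (59.8 to 66.4). The low wt levels and the high level of ddm1 control follow from the choice of the gene. The annotation places CML30 within AT2G15690, also among the 419 genes, so both share calls. TBL21 (AT5G15890), of a family of which members acetylate cell wall polysaccharides, had 1.30% and 1.48% in the wt groups, 5.09% in poliv control, 1.08% in poliv heat, 55.9% in ddm1 control and 56.5% in ddm1 heat.

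A pair of the 10 genes with the highest CHG in ddm1 heat is annotated as peroxidases, enzymes that oxidise phenolic compounds with hydrogen peroxide. AT1G30870 had 0.825% in wt control, 0.838% in wt heat, 1.99% in poliv control, 1.35% in poliv heat, 37.8% in ddm1 control and 59.9% in ddm1 heat. AT5G51890 had 1.41%, 1.13%, 1.83% and 3.96% in the same order of wt and poliv groups, 48.8% in ddm1 control and 53.5% in ddm1 heat.

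The others of these 10 genes had between 48.8% and 59.6% CHG in ddm1 heat. OFP14, of a family of transcriptional repressors, went from 31.5% in ddm1 control to 51.1% in ddm1 heat, with at most 0.898% in wt and poliv. EMB2745, a gene for a repeat protein, had 34.5% and 49.2%, with at most 1.30% in wt and poliv. AT5G45790, annotated as a ubiquitin hydrolase, had 51.4% and 51.5%, and between 1.81% and 5.76% in wt and poliv. The remaining ones were the long non-coding RNA genes AT2G04285 and AT2G04295 and the transcribed pseudogene AT2G24750.

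**Figure D2:**
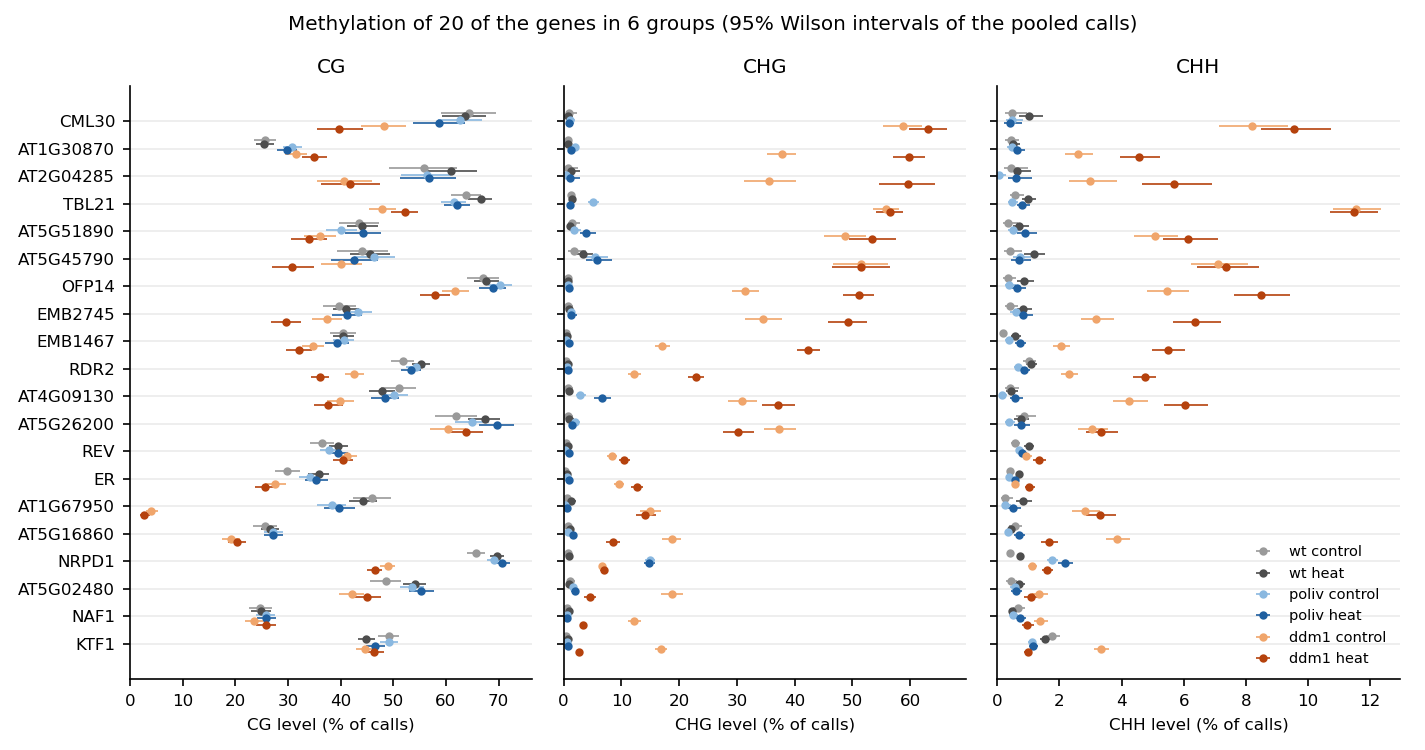
CG, CHG and CHH levels in percent of calls of 20 of the genes in the 6 groups, each point a pooled column with its 95% Wilson interval, which covers counting error only. CHG of the upper rows lies near 0 in wt and poliv and at up to 63.2% in ddm1, NRPD1 has more CHG in poliv than in ddm1, and in KTF1, NAF1 and AT5G02480 CHG is seen mainly in ddm1 control.

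CG methylation of the 419 genes was partly retained in ddm1. Its median was 40.3% in wt control, 39.7% in wt heat, 40.6% in poliv control, 40.9% in poliv heat, 32.7% in ddm1 control and 32.1% in ddm1 heat. In the median gene ddm1 control held 84.8% of the wt control level, and the other body-methylated genes held 80.7%. Under 50% of the wt level was left in 21 of the 419 genes (5.01%) and in 13.1% of the others.

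Between ddm1 heat and poliv heat CG was lower in ddm1 in 272 of the 419 genes (64.9%), with 27.8% of all genes tested called, a set that includes genes without CG methylation, and 62.3% of the other body-methylated genes. It was higher in 6 genes (1.43%), against 0.7% of all genes. With the statistic scaled by the dispersion over all genes tested, the lower calls dropped from 272 to 124 of the 419 genes (29.6%), beside 17.2% of all genes. The scaling factor, 6.25 here, is the median statistic over all genes relative to its value without differences. Real differences in many genes raise it too, so it does not measure spread between libraries. Of the 360 genes with higher CHG, 240 had lower CG, 6 had higher CG and 114 had no call in CG. All 6 genes with higher CG, among them AT1G30870, SSP5 and AT5G22840, also had higher CHG, but so had 85.9% of the 419 genes.

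CG and CHG levels could thus lie far apart within a gene. AT1G67950, for an RNA-binding protein, had the lowest CG in ddm1 heat, with 46.0% in wt control, 44.2% in wt heat, 38.3% and 39.7% in poliv, 4.05% in ddm1 control and 2.75% in ddm1 heat. Its CHG level was 14.9% and 14.2% in the ddm1 groups and at most 1.36% in the others. CYP704B1, which takes part in making the pollen wall, had 33.3% CG in wt control and 5.32% in ddm1 heat, where its CHG was 15.2%. The highest CG in ddm1 heat was that of the long non-coding RNA gene AT3G08070, with 90.6% in both wt groups and 83.4% in ddm1 heat, and its CHG there was 8.48%. Over the 419 genes the correlation of CG and CHG levels in ddm1 heat was r = 0.095, a description over genes of the same libraries.

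In 23 of the 419 genes CHG was above CG in ddm1 control. In ddm1 heat this held for 58 genes, including all of these 23. In wt and poliv it held for none of the 419 genes in any of the 4 groups, which follows in wt from the choice of the genes.

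CHH methylation was low but higher in ddm1. The median of the 419 genes was 0.35% in wt control, 0.71% in wt heat, 0.37% in poliv control, 0.63% in poliv heat, 0.92% in ddm1 control and 1.58% in ddm1 heat. The other body-methylated genes had medians of 0.40% and 0.72% in the ddm1 groups, near those of wt. In the chloroplast genes the CHH level was between 0.390% and 0.805% and again higher in all 3 heat groups than in their controls.

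CHH was at least 2% in ddm1 heat in 152 of the 419 genes (36.3%) and in 27 of the 5403 other body-methylated genes. In wt heat and poliv heat it reached 2% in 5 and in 3 of the 419 genes. By the call, which asks for 5 points, CHH was higher in ddm1 heat than in poliv heat in 21 of 419 genes (5.01%), against 0.21% of all 28132 genes tested in CHH. Each of these 21 genes also had higher CHG by the call, as had 85.9% of the 419 genes. Without the 5 points 320 of the 419 genes (76.4%) passed in CHH, beside 8.51% of all genes.

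The highest CHH level in ddm1 heat was that of TBL21. It was 0.585% in wt control, 0.996% in wt heat, 0.486% in poliv control, 0.808% in poliv heat, 11.5% in ddm1 control and 11.5% in ddm1 heat. The pseudogene AT2G24750 reached 9.69%, CML30 9.55%, AT2G03770 9.51% and OFP14 8.48%. Across the 419 genes in ddm1 heat, CHH was 0.135 times the CHG level in the median gene, and both levels had a correlation of r = 0.83. This is a description over genes that share libraries.

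Stability between the ddm1 groups was described next. Of the 419 genes 380 (90.7%) had at least 5% CHG in ddm1 heat too, and the levels of both groups had a correlation of r = 0.88 over the genes. The level was higher in heat in 331 genes (79.0%) and lower in 88, which is near the background, since it was higher in 77.9% of all genes and 82.2% of the other body-methylated genes. After subtraction of the difference of 0.327 points between the chloroplast levels it was higher in 319 and lower in 100. Genes with at least 20% CHG numbered 61 in control and 121 in heat, and those with at least 40% numbered 6 and 20.

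The call for a rise in CHG was met by 135 of the 419 genes (32.2%), beside 0.999% of all genes tested, and that for a fall by 15 genes (3.58%), beside 0.135%. Since ddm1 control had chosen the genes, these counts are a description. Genes near the limit crossed it most often. Of the 235 genes between 5% and 10% in control 35 were below 5% in heat, while of the 61 genes at 20% or more none was. Nearest to the limit on the inner side were AT1G51200 with 5.01%, BIP2 with 5.02% and AT5G20450 with 5.03% in ddm1 control, and they had 8.29%, 7.08% and 4.50% in heat. Just outside lay AT5G37310, GTB1 and AT3G49990, with 4.98%, 4.99% and 4.99% in ddm1 control. Among the 5403 other body-methylated genes 170 (3.15%) reached 5% in ddm1 heat, at most 17.5%, so 69.1% of the 550 body-methylated genes at 5% in ddm1 heat were also there in ddm1 control.

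**Figure D3:**
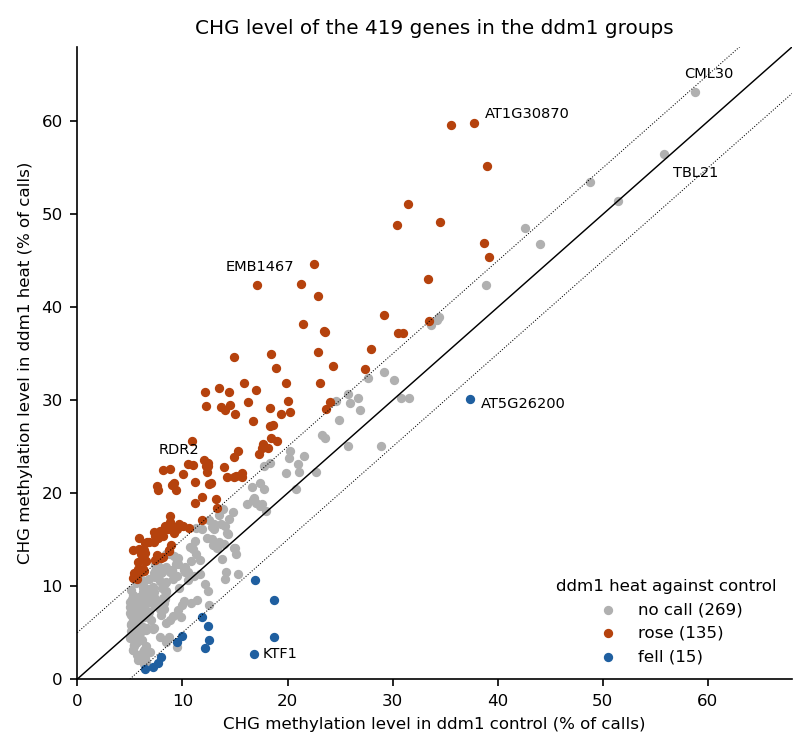
CHG level of each of the 419 genes in ddm1 control (x axis) and ddm1 heat (y axis), in percent of calls. The solid line marks equal levels and the dotted lines a difference of 5 points, and colours give the call: 135 genes rose, 15 fell and 269 had no call, with KTF1 near the bottom and CML30 at the upper right.

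The largest rise was in EMB1467 (AT5G37510), a subunit of the mitochondrial NADH dehydrogenase. Its CHG was 0.478% in wt control, 0.598% in wt heat, 0.492% in poliv control, 0.858% in poliv heat, 17.1% in ddm1 control and 42.4% in ddm1 heat. Its CHH was 2.05% in ddm1 control and 5.49% in ddm1 heat, and CG had no call at 34.7% and 32.1%. AT2G04285 rose by 24.0 points to 59.6%, and AT1G30870 and AT2G06795 by 22.1 points each, to 59.9% and 44.6%. AT1G29540, which codes for a BOBBER-like protein, rose by 21.2 points to 42.5%.

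All 135 genes that rose in CHG also had a higher CHH level in ddm1 heat than in control, but so had 93.3% of the 419 genes, 96.5% of the other body-methylated genes and 91.5% of all genes, and the chloroplast level was higher too. CG fell by the call in 11 of the 135 (8.15%) and rose in none. Of the 419 genes 6.92% fell and 0.955% rose in CG, beside 0.896% and 0.547% of all genes. One of the 11 was RDR2 (AT4G11130), the polymerase that makes double-stranded RNA from the transcripts of RNA polymerase IV. In CHG, RDR2 had 0.361% in wt control, 0.73% in wt heat, 0.531% in poliv control, 0.714% in poliv heat, 12.2% in ddm1 control and 23.0% in ddm1 heat. Its CG level was 42.6% in ddm1 control and 36.1% in ddm1 heat, after 51.8% to 55.2% in the other groups.

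The largest falls were in AT5G02480, annotated as an HSP20-like chaperone, and KTF1 (AT5G04290), a factor that binds ARGONAUTE4 in RdDM. AT5G02480 had between 0.857% and 1.90% CHG in wt and poliv, 18.7% in ddm1 control and 4.51% in ddm1 heat. KTF1 had between 0.448% and 0.761% in wt and poliv, 16.8% in ddm1 control and 2.73% in ddm1 heat. KTF1 had 3791 to 6042 CHG calls per group. Its CHH level was 3.35% in ddm1 control and 0.974% in ddm1 heat, and CG was 44.6% and 46.4% without a call. The next ones were AT5G16860, from 18.7% to 8.47%, NAF1, which assembles small nucleolar ribonucleoproteins, from 12.2% to 3.33%, and AT5G12310, from 12.5% to 4.22%. Of the 15 genes that fell 5 still had 5% or more in ddm1 heat. CG rose in none of them and fell by the call in 1 (6.67%), beside 6.92% of the 419 genes and 0.896% of all genes.

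The falls were not spread evenly over the chromosomes, a pattern seen in these data and not looked for beforehand. Of the 15 genes 11 lie in the first 10 Mb of chromosome 5, where 38 of the 419 genes are, and the other 4 lie elsewhere among 381. In the first 10 Mb of chromosome 5 the median difference in CHG was a fall by 1.17 points and 22 of 38 genes had a lower level in heat, whereas outside it the median difference was 3.14 points and 66 of 381 had a lower level. The same stretch had a median CG difference of 1.90 points in these genes and 1.54 points in the 588 other body-methylated genes there, beside -0.64 and -0.23 outside it. The CHG levels of those 588 genes were under 5% in ddm1 control by the choice, so they could not show such falls. The rises were found on all 5 chromosomes, in 25 of 47 genes on chromosome 4 (53.2%) and 37 of 91 on chromosome 2 (40.7%). On the other 3 it was between 24.6% and 26.4% of the genes. Within chromosome 5, 5 of 38 genes (13.2%) rose in the first 10 Mb and 24 of 72 (33.3%) in the rest. The sources used here do not say whether the plants of the ddm1 libraries were related, so a difference between plants and one between heat and control cannot be told apart.

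**Figure D4:**
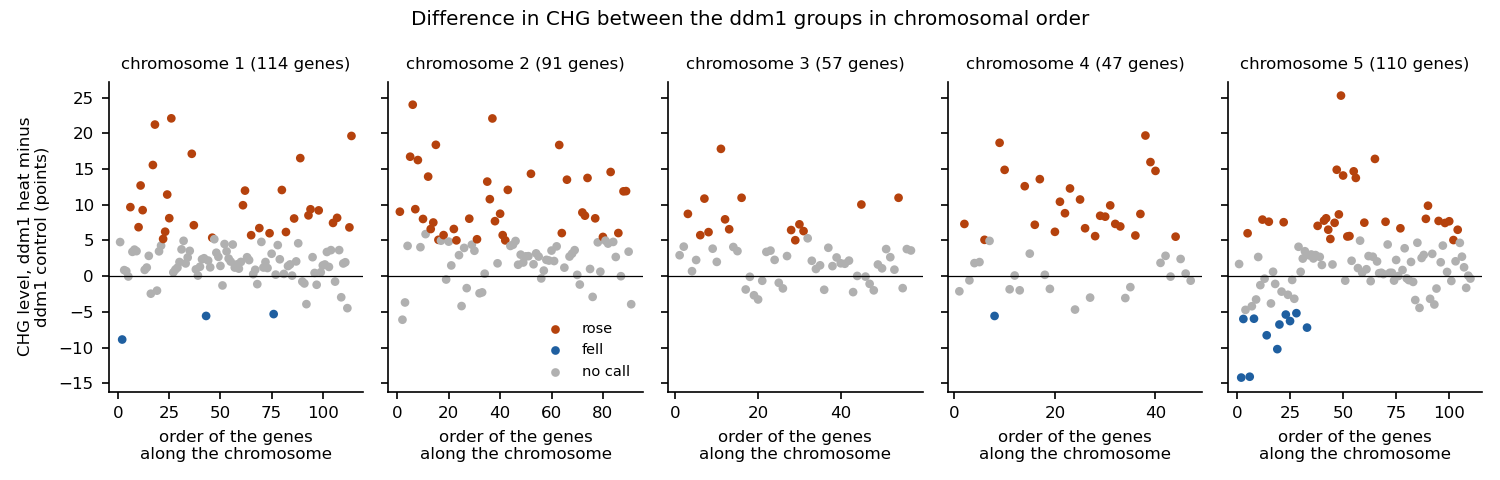
Difference in CHG level between ddm1 heat and ddm1 control in points for each of the 419 genes, in their order along chromosomes 1 to 5, coloured by the call. Of the 15 genes that fell 11 stand at the start of chromosome 5, and genes that rose are seen on all chromosomes.

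In CG and CHH the ddm1 groups were compared as well. The rule used neither context in ddm1, but CG in wt had to reach 20%. In ddm1 control CHH went with CHG, which chose the genes (r = 0.84 over the 419 genes). The CHH counts are therefore a description. CG fell in 29 of the 419 genes (6.92%) and rose in 4 (0.955%), beside 0.896% and 0.547% of all genes tested and 2.11% and 1.65% of the other body-methylated genes. With the dispersion scaling 11 of the 29 and 2 of the 4 calls held, together 3.10% of the 419 genes beside 0.615% of all genes. The correlation of the CG levels of both groups over the genes was r = 0.97. CHH rose by the call in 0 of the 419 genes, beside 0.0462% of all genes. Without the 5 points it was higher in heat in 297 genes, but 43.4% of all genes tested passed that weaker rule.

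In poliv few of these genes differed between heat and control. CHG differed by the call between poliv heat and poliv control in 1 of 419 genes (0.239%), beside 0.096% of all genes. This gene was AT1G32260, with 0.805% and 0.452% in the wt groups, 1.85% in poliv control, 8.22% in poliv heat, 7.46% in ddm1 control and 12.4% in ddm1 heat (adjusted p = 3.7e-06 in poliv, Fisher's exact test). CG differed in 10 genes (2.39%), beside 1.22% of all genes, with 7 higher and 3 lower in heat. The largest of these were AT4G01700, a chitinase gene, with 48.6% in poliv control and 58.4% in poliv heat, and AT2G05320, an N-acetylglucosaminyltransferase gene, with 66.9% and 57.9%. SERK1, a receptor kinase of reproductive tissues, had 46.0% and 39.5%. Of the 10 calls 2 held with the dispersion scaling (0.477%), beside 0.466% of all genes. CHH differed in 0 genes, beside 0.0924% of all genes, and without the 5 points in 159 (37.9%), beside 31.1% of all genes.

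A CHG level of 5% or more was seen in 10 of the 419 genes in poliv heat and in 5 in poliv control. After NRPD1 and AT1G32260 the highest in poliv heat were RLP40, a receptor-like protein, with 6.12% in poliv control and 7.96% in poliv heat, MOT1, a molybdate transporter, with 3.88% and 7.55%, and AT4G09130, a RING/U-box protein, with 2.82% and 6.60%. All 3 had more CHG in ddm1 heat, namely 10.8%, 17.2% and 37.2%. In RLP40 this difference was not past the call.

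Of 102 genes in 10 lists of pathways and marker genes, 7 were among the 419. The RdDM list gave 3 of its 21 genes, of which 15 are body-methylated: NRPD1, RDR2 and KTF1. Over this whole list CHG was higher in ddm1 heat than in poliv heat in 2 genes, RDR2 and SUVH2. It was lower in 1, NRPD1. Of all genes tested 2.71% were higher and 3.83% lower. The median difference was 0.83 points in the list, beside 0.28 over all genes tested. The 10 genes of CHG control, 7 of them body-methylated, gave none of the 419 genes and no CHG call. IBM1 had 24.6% CG and 1.53% CHG in wt control, 2.36% CHG in ddm1 control and 3.35% in ddm1 heat, and CMT3 had 2.76% and 3.50% in the ddm1 groups. None was found among the lists of demethylases, chromatin remodellers, CG maintenance and heat response, with 4, 6, 5 and 17 genes. Of these only 2, 6, 1 and 1 are body-methylated, so only those could be among the 419 genes. DDM1 itself did not qualify, since its CG level in wt control was 18.2%. The CHG level of DDM1 was 0.434% in wt control, 49.5% in ddm1 control and 48.7% in ddm1 heat, with the insertion of the line in this gene.

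The list of meristem and floral identity gave ER and REV. ER, a receptor kinase that shapes inflorescences, had 0.259% CHG in wt control, 0.58% in wt heat, 0.668% and 0.958% in poliv, 9.53% in ddm1 control and 12.7% in ddm1 heat. REV, a homeodomain factor of meristems and vascular tissue, had 0.359%, 0.83%, 0.294% and 1.01% in wt and poliv and 8.41% and 10.5% in ddm1. In both the call for ddm1 heat against poliv heat was met (adjusted p = 8.4e-102 for ER and 3.3e-79 for REV, Fisher's exact test). Over this whole list of 21 genes, 7 of them body-methylated, CHG was higher by this call in 3, ER, REV and SUP. It was lower in 0. Of all genes tested 2.71% were higher and 3.83% lower. The median difference was 0.276 points in the list, beside 0.278 over all genes tested. SUP, with 0% CG in wt control, was not body-methylated, and its CHH was higher by the call too. The reference gene SAND (AT2G28390) had 10.5% and 11.5% in ddm1 and at most 1.40% elsewhere. CAB3, a light-harvesting protein gene taken as a marker of leaf cells, had 6.19% in ddm1 control and 4.17% in ddm1 heat, beside 1.81% to 3.22% in wt and poliv, and no call. Its CG fell from 46.9% in wt control to 13.6% in ddm1 control.

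The 419 genes differed from the other body-methylated genes in features that the rule did not use. By the RefSeq annotation 385 code for proteins (91.9%), 26 are long non-coding RNA genes, 5 are pseudogenes, 2 are antisense RNA genes and 1 is another non-coding RNA gene. Single-exon genes made up 18.6%, beside 8.14% of the others, and the median number of exons was 5 beside 8. They were shorter, with a median of 2875 bases beside 3360, and had more CG sites per kb (50.7 beside 44.2) and about as many CHG sites per kb (66.0 beside 67.4). The depth was similar, with 10.7 CHG calls per site in ddm1 control beside 11.1. These are descriptions of 2 sets of genes that share their libraries, and no test was made.

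The share of body-methylated genes that gained CHG rose with the CG level in wt control, which the rule used only as a limit. It was 4.57% at 20 to 30% CG, 5.32% at 30 to 40%, 11.0% at 40 to 50%, 14.3% at 50 to 60% and 26.0% at 60% or more. Within the 419 genes the CG level in wt control had little relation to the CHG level in ddm1 heat (r = 0.14 over genes). By exons the share fell from 15.1% of single-exon genes to 3.26% of genes with 16 or more exons. By chromosome it lay between 5.14% on chromosome 3 and 10.4% on chromosome 2.

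**Figure D5:**
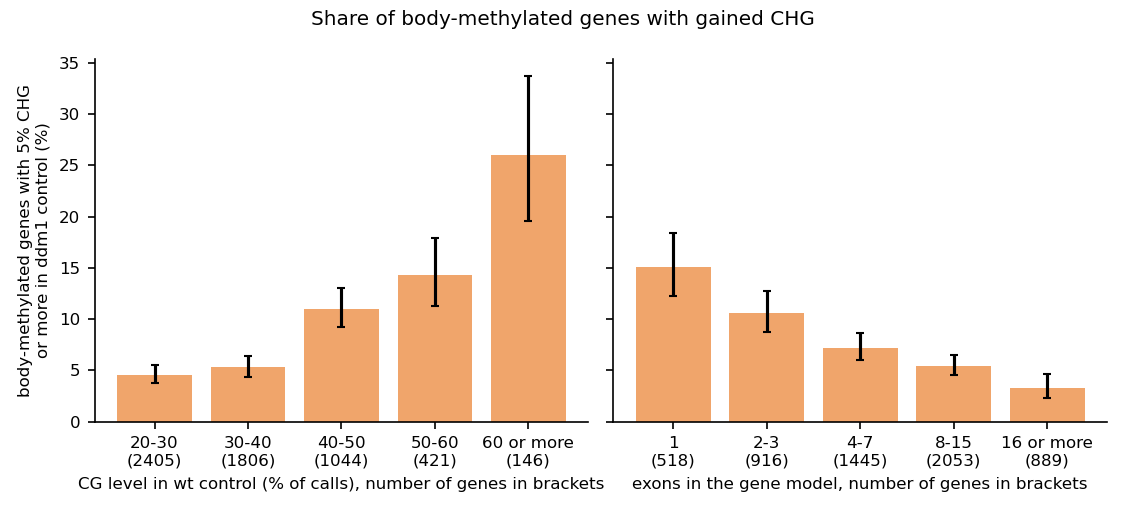
Share in percent of body-methylated genes that had 5% CHG or more in ddm1 control, by CG level in wt control (left) and by number of exons (right), with 95% Wilson intervals and the number of genes in brackets. The share is 4.57% in the lowest and 26.0% in the highest CG class, and 15.1% in single-exon genes and 3.26% in genes with 16 or more exons. The intervals treat genes as independent, although some overlap and all share their libraries.

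The 419 genes form 393 separate stretches of the genome, since 51 of them lie in 25 stretches with 2 or more of the genes. Overlap with any other annotated gene was seen in 155 (37.0%), beside 38.2% of the other body-methylated genes. Overlapping genes share calls and are not independent. Within 10000 bases of another such stretch lay 55 stretches (14.0%). A run at chr2:762927-773552 held 4 genes, among them AT2G04285 and AT2G04295, and another at chr3:16374243-16391582 held AT3G44850, AT3G44880, AT3G44890 and AT3G44900.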

How the data were processed

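Bisulfite reads of the 12 libraries were trimmed with Trim Galore 0.6.2 and aligned to TAIR10 with Bismark 0.22.2 by the authors, who removed duplicates and called cytosines with methylpy. The labels also name bedtools 2.27. Per gene, context and group, the authors deposited methylated counts and coverage as whole counts of calls, and the fraction methylated. The fraction (18 columns) was left aside, and each level here is the methylated calls divided by all calls. The sources used here do not say how the authors combined the 2 libraries of a group.

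The groups held between 26360901 and 42161356 CG calls in genes, and each of the 419 genes had at least 110 CHG calls per group. Fisher's exact test (scipy 1.17.1, Python 3.11.15), 2-sided with p as 2 times the smaller tail, was run on all genes with at least 100 calls in every group. Benjamini-Hochberg adjustment was over all of these, and a call needed an adjusted p under 0.05 and 5 points. Wilson intervals (95%) of levels and p-values cover counting error only, and Wilson intervals of shares of genes treat the genes as independent. The test was tried on simulated counts that held counting error only, so its behaviour under spread between libraries was not tested. Gene models came from RefSeq TAIR10.1, where 37898 of 38387 identifiers matched. The chromosome sequences carry the name of the same build, but the table has no coordinates to compare.

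The genes and lists were chosen with earlier results of these data known. Named genes are the 10 highest in CHG, the 5 highest in CHH and the 5 highest and lowest in CG in ddm1 heat, the 5 highest in CHG in poliv heat, the 5 largest rises and falls between the ddm1 groups, up to 5 calls each way in poliv, the 3 nearest to the limit on each side and all list members. Of these the text names a part, and SSP5, AT5G22840, AT5G26200 (marked in a plot) and the chromosome 5 pattern were chosen after values were seen. Alternatives were coverage minimums of 50 and 200, other limits of the rule, no minimum difference and 10 points, matching of the chloroplast background with seed 7, scaling by dispersion, and protein-coding genes without overlap.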

Additional observations from a re-analysis of the deposited data

Results flagged for a closer look

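Heat effects were compared between ddm1 and poliv, as the difference of both differences from the control, by a normal statistic on the 4 pooled columns with the same adjustment and the same 5 points. This comparison was chosen after seeing the data, and for CHG it rests on ddm1 control, which chose the genes. In CHG the heat effect was above that of poliv in 121 of the 419 genes, beside 0.810% of all genes tested, and below it in 18, beside 0.181%. In CG it was above that of poliv in 2 genes, beside 0.846%, and below it in 19, beside 1.56%. In CHH it was above in 0 and below in 0 genes, beside 0.0924% and 0.0498% of all genes tested. The statistic covers counting error only.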

How the results depend on the processing

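No paired analysis was possible because the columns are pooled per group, and for the same reason no library could be left out. Of 100 counts under the alternatives, 68 lay within 1.5 times the reported count. With 10% CHG as the limit 184 genes were left, 180 of them at 5% or more in ddm1 heat. Between ddm1 heat and poliv heat 177 of these had higher CHG, beside 2.71% of all genes, and 133 lower CG, beside 27.8%. In CG 16 differed between the ddm1 groups, beside 1.44%. In the ddm1 groups 82 rose in CHG, beside 0.999% of all genes, and 9 fell, beside 0.135%. In poliv 0 differed in CHG, beside 0.096%, and 5 in CG, beside 1.22%. With 30% CG as the limit in wt 9 fell in CHG, beside 0.135% of all genes. Protein-coding genes without overlap left 261 genes, 236 of them at 5% or more in ddm1 heat. Against poliv heat 223 were higher in CHG (2.65% of all such genes), 166 lower in CG (27.1%) and 10 higher in CHH (0.180%). Between the ddm1 groups 89 rose in CHG (1.07%) and 20 differed in CG (1.41%).

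Without a minimum difference CHH was higher in 320 genes against poliv heat (8.51% of all genes). It was higher in 297 against ddm1 control (43.4% of all) and differed in 159 in poliv (31.1% of all). Under the same rule 33 fell in CHG between the ddm1 groups (0.540% of all) and 12 differed in CHG in poliv (0.729% of all). With 10 points CG was lower in 158 (15.1% of all genes) and CHH higher in 1 (0.0107% of all) against poliv heat. Between the ddm1 groups CHG rose in 47 (0.281% of all) and fell in 3 (0.032% of all). There CG differed in 6 (0.163% of all). In poliv 0 differed in CG (0.167% of all) and 0 in CHG (0.032% of all). With dispersion scaling CG was lower in 124 against poliv heat (17.2% of all genes). It differed in 13 between the ddm1 groups (0.615% of all) and in 2 in poliv (0.466% of all). Matching of the chloroplast background moved no count by over 1.5 times. Coverage minimums of 50 and 200 moved none either. Counts under another limit or with fewer genes differ by construction, and for dispersion scaling the cause was not tested. Intervals and p-values cover counting error only.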
